A study of Rattus norvegicus with 6 samples.

Results

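The neurotrophins are secreted growth factors that support the survival of neurons and the plasticity of their synapses. The set described here holds the neurotrophins Bdnf, Ntf3 and Ntf4, Gdnf (a survival factor of the related GDNF family), the receptor kinases Ntrk2 (TrkB) and Ntrk3 (TrkC), the p75 receptor Ngfr, and Sort1 (sortilin), which binds the uncleaved precursor forms and sorts them inside the cell. Its members were chosen by symbol, as the probe sets whose only gene symbol in the platform annotation was one of these 8. They were 14 of the 31042 probe sets tested, and 8 of 14217 genes. Ntrk2 was read by 5 probe sets, Bdnf and Sort1 by 2 each, and the other 5 genes by 1 each.

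The study asked which mRNAs change in the prelimbic cortex (PL), a medial prefrontal area that takes part in pain and the anxiety that goes with it, under chronic neuropathic pain. RNA was taken from the PL opposite the operated leg in male Sprague Dawley rats, which were 6 to 7 weeks old when acquired, on day 14 after surgery. In the SNI group (spared nerve injury, 3 samples) only the sural branch of the left sciatic nerve stayed whole, since its tibial and common peroneal branches had been severed. The control group (3 samples) had a sham operation that laid the nerves open and did no further injury. Each sample was hybridized to 1 Affymetrix rat expression array, and no source states whether a sample came from 1 rat or from several. The p-values therefore refer to the variation among these 6 samples, part or all of which may be technical.

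Neurotrophins act in pairs with receptors. BDNF and NT-4 bind TrkB, and NT-3 binds TrkC above all, which leads through adaptor proteins to the Ras-MAP kinase, PI3 kinase and phospholipase C pathways. The p75 receptor binds every neurotrophin and, together with sortilin, their uncleaved precursors, whose signals can oppose those of the Trk receptors. In cerebral cortex Bdnf is made chiefly by excitatory neurons and its transcription follows their activity, while TrkB is found on neurons and, in a truncated form without the kinase, on astrocytes.

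All values are log2 values given relative to the median of the same probe set over the 6 samples, so a sample at 0 sits in the middle of the 6 and no level of an mRNA can be read. For this reason neither the presence of a member nor that of the markers of PL neurons could be checked. The control samples varied more than the SNI samples (over all probe sets, the SD had a median of 0.067 among SNI samples and 0.11 among control samples), with control samples 1 and 3 apart from the other 4 on the first principal component. The bacterial hybridization controls, which are spiked into every sample, were higher on the SNI arrays by 0.27. Their means did not overlap between the groups (0.054 to 0.19 in the SNI samples, −0.22 to −0.047 in the control samples). A fit with them as a covariate therefore cannot separate them well from the group. In bulk tissue, fewer cells of a type and less RNA per cell cannot be told apart.

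Ntrk2 was the member that stood highest in the SNI group relative to the control group, by 0.18 on the log2 scale as the mean of its 5 probe sets (1.13-fold). Ntrk3 was the one that stood lowest, at −0.14. Bdnf was at −0.085, and the other 5 members lay between −0.12 and 0.17. None of the 8 genes and none of the 14 probe sets passed an adjusted p of 0.05 in limma, which 0.00% of all genes and 0.0322% of all probe sets passed. At an unadjusted p under 0.05 the mean of Ntrk2 passed (1 of 8 genes, against 13.2% of all genes), and so did 1 of its probe sets (1 of 14, against 13.1% of all probe sets). The groups did not overlap for 2 of the 8 genes, Ntrk2 and Ntrk3, against 20.1% of all genes, and for 2 of the 14 probe sets, against 19.6% of all probe sets. These shares are close to the background. The median difference was −0.030 over the 8 genes and −0.011 over all genes. The member count at an unadjusted p under 0.05 was 0 when SNI sample 2, SNI sample 3 or control sample 3 was left out, and 2 when control sample 2 was, where Sort1 (−0.20) joined Ntrk2.

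**Figure D1:**
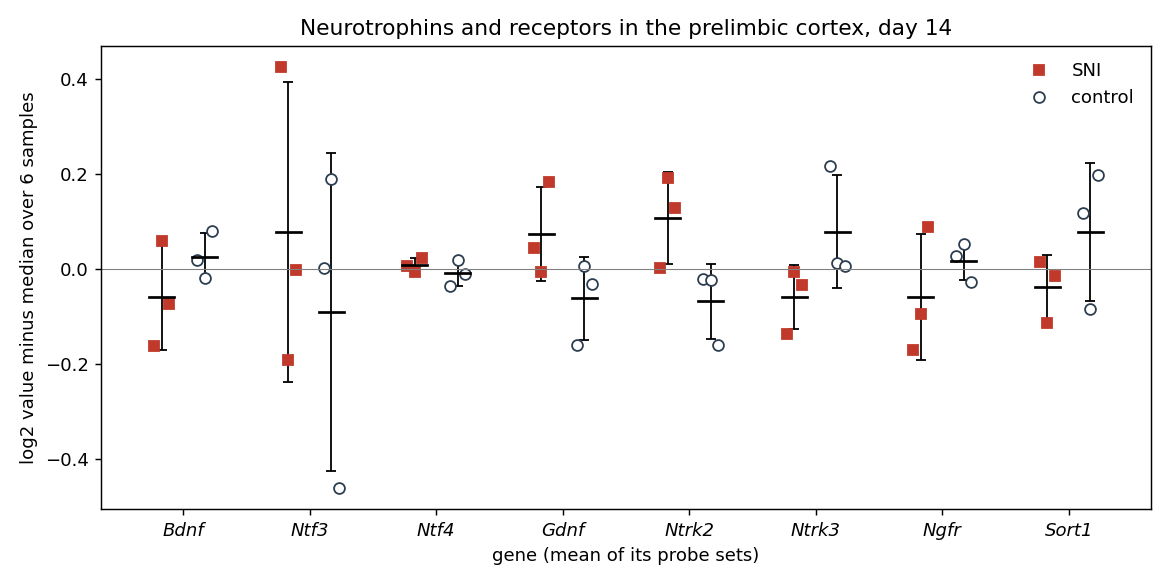
Log2 values by sample, less the median of the 6 (y axis), for the 8 members (x axis), averaged over the probe sets of the gene. Filled squares are the 3 SNI samples and open circles the 3 control samples, with the mean (bar) and the SD (error bar); the groups are apart for Ntrk2 and Ntrk3 and overlap for the other 6, and Ntf3 has the widest spread (−0.19 to 0.43 in SNI samples, −0.46 to 0.19 in control samples).

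Among the ligands, Bdnf is the main activity-dependent neurotrophin of the cortex. Its mean over 2 probe sets was −0.16, 0.059 and −0.074 in SNI samples 1 to 3, against 0.018, −0.020 and 0.080 in control samples 1 to 3. SNI sample 1 was the lowest of the 6, SNI sample 2 lay within the control range, and the groups overlapped. The difference was −0.085 (SE 0.070, 95% confidence interval −0.25 to 0.076, limma adjusted p = 0.654), which is a fold of 0.943 with an interval of 0.843 to 1.05. It was −0.034 without SNI sample 1 and −0.14 without SNI sample 2, and 0.077, with the sign turned, when the hybridization controls entered as a covariate.

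The 2 probe sets of Bdnf gave different values. Probe set 1368677_at read −0.32, 0.042 and −0.14 in the SNI samples, against 0.10, −0.042 and 0.11 in the control samples, a difference of −0.20 (SE 0.098, adjusted p = 0.455). Probe set 1368678_at read −0.0030, 0.076 and −0.0077 in the SNI samples, against −0.065, 0.0030 and 0.048 in the control samples, a difference of 0.026 (SE 0.063, adjusted p = 0.908). SNI sample 1 was thus the lowest of the 6 on one probe set and in the middle on the other. The difference between the probe sets, −0.22, had an exact permutation p = 0.2 (two-sided, 12 pairs of probe sets compared, adjusted p = 0.4), in a design where 0.1 is the smallest p possible. The values of the 6 samples on the 2 probe sets correlated at r = 0.15. The difference on 1368677_at was −0.11 without SNI sample 1 (unadjusted p = 0.287), −0.29 without SNI sample 2 (unadjusted p = 0.0169, adjusted p = 0.414) and −0.016 with the hybridization controls as a covariate. On 1368678_at the difference was −0.00063 when SNI sample 2 was left out and −0.0036 when control sample 1 was, below 0 in both cases.

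Bdnf lies on rat chromosome 3 (116619633 to 116670212 in RefSeq, build GRCr8) and is transcribed from several alternative starts, which splice to a shared coding exon. RefSeq windows before annotated starts were at hand for 5 of the 8 members, 12 windows in all, of which 6 belong to Bdnf. Each was searched over the 250 bases before the start for the short form of the cAMP response element (TGACG on either strand, which also lies within the full element TGACGTCA), through which neuronal activity raises transcription by CREB. It was found in 2 of the 12 windows, 1 of Bdnf and 1 of Gdnf, against 18.2% of 33469 rat windows of the same length. The 12 are not all separate sequences, since 2 windows of Ntf3 lie 1 base apart and 2 of Bdnf overlap. The full element (in 1.59% of all windows), the EGR motif GCGTGGGCG (0.478%) and the NR4A motif AAAGGTCA (1.24%), each searched on both strands, were in none of the 12. The 2 windows are shown because they are the ones with a match, with the short element in capitals. In the Bdnf window it starts 35 bases before the start of transcription, within the region known for activity-dependent Bdnf transcription, and in the Gdnf window 49 bases before. The array does not tell the starts of Bdnf apart by any annotation used here, and a match is a description of these letters only.
Bdnf, chr3:116637608-116637857, plus strand: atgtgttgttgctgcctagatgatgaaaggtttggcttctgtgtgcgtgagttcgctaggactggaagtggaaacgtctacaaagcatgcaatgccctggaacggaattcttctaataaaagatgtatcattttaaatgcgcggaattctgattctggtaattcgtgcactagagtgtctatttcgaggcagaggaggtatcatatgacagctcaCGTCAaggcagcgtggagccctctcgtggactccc
Gdnf, chr2:58621077-58621326, plus strand: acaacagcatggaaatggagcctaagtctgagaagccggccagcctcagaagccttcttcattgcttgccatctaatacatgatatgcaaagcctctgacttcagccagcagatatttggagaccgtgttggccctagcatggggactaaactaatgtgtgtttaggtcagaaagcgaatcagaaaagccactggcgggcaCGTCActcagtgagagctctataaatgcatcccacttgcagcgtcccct

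Gdnf, which supports dopamine neurons and motor neurons and signals through Gfra1 and Ret, lies on chromosome 2 (58621327 to 58647242). It read 0.045, −0.0069 and 0.18 in the SNI samples, against −0.16, 0.0069 and −0.032 in the control samples. SNI samples 1 and 3 lay above all control samples, and SNI sample 2 lay below control sample 2. The difference was 0.14 (SE 0.072, 95% confidence interval −0.032 to 0.30, adjusted p = 0.476). Without control sample 1, the lowest of the 6, it was 0.086, and without SNI sample 3 it was 0.081.

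Ntf3, which encodes NT-3, the main ligand of TrkC, was the most variable member. Its probe set read 0.43, −0.19 and −0.0014 in the SNI samples, against 0.0014, 0.19 and −0.46 in the control samples, so that both extremes of the 6 values came from 1 sample of each group. The difference was 0.17 (SE 0.19, 95% confidence interval −0.28 to 0.62, adjusted p = 0.761). It was −0.0061 without SNI sample 1 and −0.018 without control sample 3, so its sign rested on either of these samples. It was 0.30 without SNI sample 2, 0.31 without control sample 2 and −0.46 with the hybridization controls as a covariate. The markers of meninges and fibroblasts, 8 of 8 measured and none at an unadjusted p under 0.05, had means of 0.30, −0.28 and 0.14 in SNI samples 1 to 3, against −0.17, −0.18 and 0.93 in control samples 1 to 3. They had the same order as Ntf3 among the SNI samples and were highest in the control sample where Ntf3 was lowest. Their part in the value of Ntf3 was not tested.
Ntf4, which encodes NT-4, the second ligand of TrkB, was the least variable. Its values were 0.0054, −0.0054 and 0.024 in the SNI samples, against −0.035, 0.020 and −0.011 in the control samples, with overlapping groups and a difference of 0.017 (SE 0.050, adjusted p = 0.922). The 95% confidence interval, −0.099 to 0.13, corresponds to a fold between 0.934 and 1.10. Whether the transcript was detected cannot be read from centred values.

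**Figure D2:**
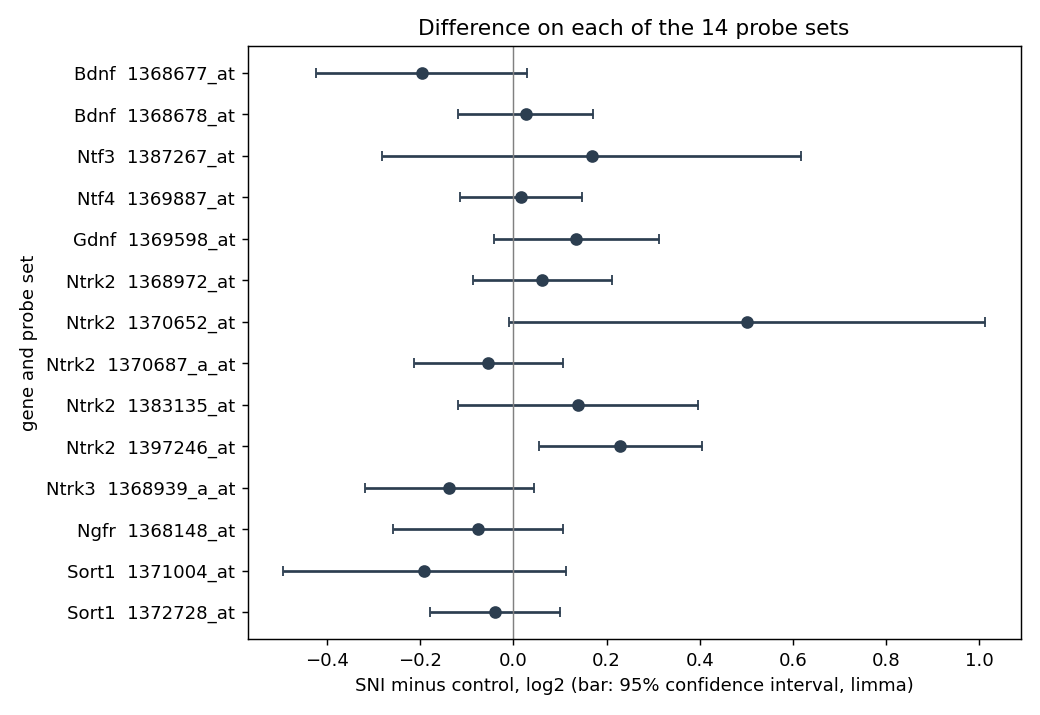
SNI minus control on the log2 scale (x axis) for each of the 14 probe sets, named by gene and probe set (y axis), with the 95% confidence interval from limma as the bar. The interval of 1 probe set, 1397246_at of Ntrk2, lies wholly above 0 (0.055 to 0.40), and that of 1370652_at of Ntrk2 is the widest (−0.0091 to 1.01).

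Among the receptors, Ntrk2 on chromosome 17 (5560558 to 5875899) gave the most data. Its mean over 5 probe sets was 0.0024, 0.19 and 0.13 in SNI samples 1 to 3, against −0.021, −0.023 and −0.16 in control samples 1 to 3. Every SNI sample lay above every control sample, but SNI sample 1 was close to control samples 1 and 2. The difference was 0.18 (SE 0.070, 95% confidence interval 0.013 to 0.34, unadjusted p = 0.0376, adjusted p = 0.343), with an exact permutation p = 0.1, the smallest that 3 against 3 samples can give.

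The 5 probe sets gave different values. Probe set 1397246_at was higher in all 3 SNI samples, with 0.055, 0.11 and 0.12, against −0.055, −0.071 and −0.28 in the control samples. Its difference was 0.23 (SE 0.076, unadjusted p = 0.0164, adjusted p = 0.259), and 0.16 without control sample 3. Probe set 1370652_at had a larger difference with a much larger spread. It read −0.13, 0.87 and 0.54 in the SNI samples, against −0.23, −0.0030 and 0.0030 in the control samples. SNI samples 2 and 3 were thus far above the rest, while SNI sample 1 lay among the control samples. The difference of 0.50 (SE 0.22, unadjusted p = 0.0533, adjusted p = 0.390) was 0.28 without SNI sample 2 and 0.78 without SNI sample 1, where the unadjusted p = 0.000377 and the adjusted p = 0.160.

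On the other 3 probe sets of Ntrk2 the groups overlapped. Probe set 1368972_at differed by 0.062 (SE 0.065), 1370687_a_at by −0.054 (SE 0.069) and 1383135_at by 0.14 (SE 0.11). The value of 1383135_at came from control sample 3 at −0.40, with the other 5 samples between −0.0068 and 0.046, and it was 0.0017 without that sample. The mean of Ntrk2 therefore rested on 2 of its 5 probe sets, and the median of the 5 in each sample gave a difference of 0.045 (adjusted p = 0.759). Over the 10 pairs of Ntrk2 probe sets the 6 values correlated between −0.54 and 0.82. By the exact permutation test 2 pairs reached a p of 0.1, 1368972_at against 1370687_a_at (0.12) and 1370687_a_at against 1397246_at (−0.28), with an adjusted p = 0.4 over the 12 pairs. Which form of the receptor each probe set reads is not given in the platform annotation.

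**Figure D3:**
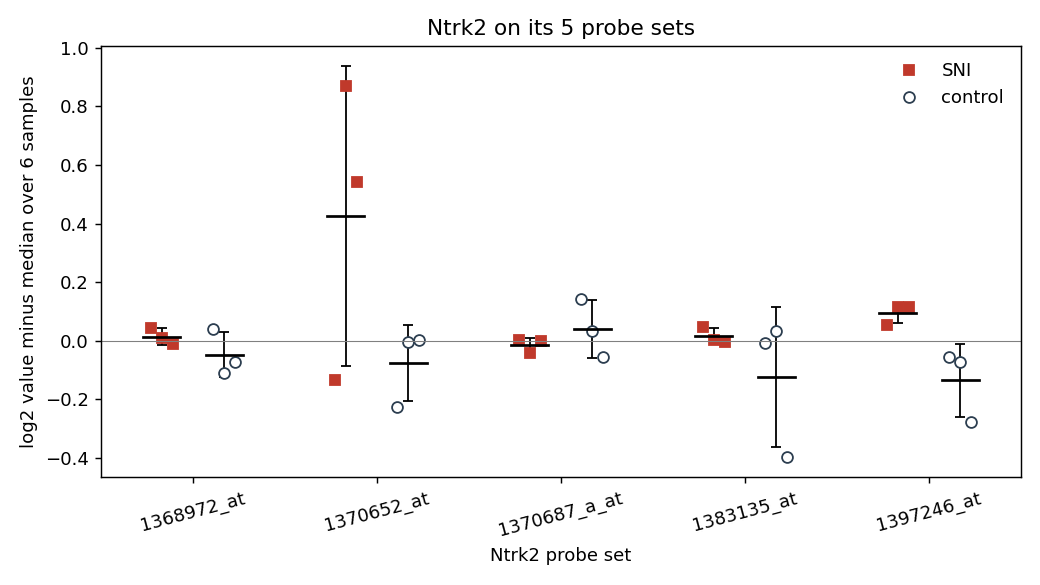
Log2 values by sample, less the median of the 6 (y axis), on the 5 probe sets of Ntrk2 (x axis). Filled squares are the 3 SNI samples and open circles the 3 control samples, with the mean (bar) and the SD (error bar); on 1370652_at SNI samples 2 and 3 (0.87 and 0.54) lie apart from the other 4, and on 1397246_at the groups do not overlap.

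Markers of astrocytes, a cell type that carries truncated TrkB, had the same sign as Ntrk2. Of 10 listed, 9 were measured and 8 had a difference above 0, with 1 at an unadjusted p under 0.05 (Aldoc, 0.16, adjusted p = 0.356). Their mean lay between 0.0044 and 0.036 in the SNI samples, against −0.14 to 0.011 in the control samples. The means of 2 other glial lists did not overlap between the groups. Those of microglia, 9 of 10 measured, had 8 genes above 0 and 1 below. At an unadjusted p under 0.05, 5 were higher and none lower, against 3.96% of all genes higher and 9.19% lower. Their means lay between 0.058 and 0.17 in the SNI samples, against −0.18 to −0.059 in the control samples. Those of oligodendrocyte precursors, 6 of 7 measured, all had a difference above 0, with 2 higher at an unadjusted p under 0.05. Their means lay between 0.050 and 0.13 in the SNI samples, against −0.082 to −0.077 in the control samples. Of these 2 genes, Cspg4 (0.29) is also a listed marker of pericytes and vascular smooth muscle, 8 of 8 measured. In that list 7 genes lay above 0 and 1 below, no other gene passed this threshold, and the means overlapped. Markers of myelinating oligodendrocytes, 9 of 10 measured, went the other way, with 8 below 0 and 1 lower at this threshold. Their means lay between −0.14 and 0.0081 in the SNI samples, against −0.19 to 0.30 in the control samples. Endothelial markers, 8 of 8 measured, had 6 above 0 and 2 below, with 2 higher and none lower at an unadjusted p under 0.05. Their means lay between 0.013 and 0.050 in the SNI samples, against −0.14 to 0.0023 in the control samples. Of 10 listed markers of neurons, 9 were measured and 7 had a difference below 0, with 3 lower and 1 higher at an unadjusted p under 0.05 and a mean between −0.084 and −0.016 in the SNI samples, against −0.013 to 0.10 in the control samples. Interneuron markers, 6 of 6 measured, had 5 below 0 and none at an unadjusted p under 0.05. The means of this list did not overlap, at −0.15 to −0.0054 in the SNI samples and 0.015 to 0.27 in the control samples. Blood cell genes, 3 of 6 listed, with Hbb (0.49) and Alas2 (0.44) at an unadjusted p under 0.05, had a pattern like that of 1370652_at, with means of 0.0013, 0.44 and 0.22 in SNI samples 1 to 3, against −0.26, 0.016 and −0.064 in control samples 1 to 3. The likeness was not particular to blood cells. Genes that BDNF induces, described below, had means of −0.037, 0.34 and 0.20 in SNI samples 1 to 3, against −0.15, −0.11 and 0.0032 in control samples 1 to 3. The part of these cells and genes in the values of Ntrk2 was not tested.

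Ntrk3, the receptor of NT-3, lies on chromosome 1 (141526192 to 141913575). It was lower in every SNI sample, with −0.14, −0.0072 and −0.033, against 0.22, 0.013 and 0.0072 in the control samples. The gap between the groups was narrow, since SNI sample 2 and control sample 3 were next to each other, and the means were set apart by SNI sample 1 and control sample 1. The difference was −0.14 (SE 0.074, 95% confidence interval −0.31 to 0.034, unadjusted p = 0.101, adjusted p = 0.480), and −0.069 without control sample 1. Set against each other within each sample, Ntrk2 minus Ntrk3 was 0.14, 0.20 and 0.16 in the SNI samples, against −0.24, −0.036 and −0.17 in the control samples. This centred difference was higher in the SNI group by 0.31, and that of Ntrk2 minus Ngfr by 0.25, which says nothing of which receptor mRNA was the more abundant. Each had an exact permutation p = 0.1 (adjusted p = 0.3 over the 6 pairs of receptor genes). For Ntrk2 minus Ntrk3 this p was fixed beforehand. Every SNI sample lay above every control sample for Ntrk2 and below every control sample for Ntrk3. The test of that pair therefore adds nothing to the values of the single genes. For the other 4 pairs the groups overlapped.

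Ngfr, the p75 receptor, lies on chromosome 10 (81012077 to 81030305). It read −0.17, −0.094 and 0.089 in the SNI samples, against 0.027, 0.053 and −0.027 in the control samples. SNI samples 1 and 2 were below every control sample and SNI sample 3 was above them all. The difference was −0.076 (SE 0.075, 95% confidence interval −0.25 to 0.097, adjusted p = 0.713). It was −0.020 without SNI sample 1, −0.15 without SNI sample 3 and −0.012 with the hybridization controls as a covariate.
Sort1 lies on chromosome 2 (198609466 to 198690481), and its mean over 2 probe sets was 0.015, −0.11 and −0.015 in the SNI samples, against 0.12, −0.084 and 0.20 in the control samples. Control samples 1 and 3 were above all SNI samples, and control sample 2 lay within the SNI range. The difference was −0.12 (SE 0.082, 95% confidence interval −0.30 to 0.073, adjusted p = 0.603). Without control sample 2 it was −0.20 (unadjusted p = 0.0167, adjusted p = 0.141), without control sample 3 it was −0.054, and without control samples 1 and 3 it was 0.046. Probe set 1371004_at carried most of it, at −0.19 (SE 0.13), against −0.039 (SE 0.060) on 1372728_at. The value on 1371004_at was −0.13 without SNI sample 2 or control sample 1, −0.10 without control sample 3 and −0.35 without control sample 2. Over 15 alternatives this probe set passed an unadjusted p of 0.05 in 1, and its lowest adjusted p in limma was 0.096. On 1371004_at the control samples spread from −0.18 to 0.31.

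The other genes of the pathway were read as lists, each gene as the mean of its probe sets, and no gene of any list passed an adjusted p of 0.05 in limma. At an unadjusted p under 0.05, 3.96% of all genes were higher in the SNI group and 9.19% were lower.
Of 20 other ligands and receptors of the neurotrophin and GDNF families, 16 were measured. Sorcs3, a relative of sortilin, was lower by 0.29 (SE 0.053, unadjusted p = 0.000628, adjusted p = 0.164). Gfra1 and Gfra2, the co-receptors of GDNF and neurturin, were at −0.23 each (SE 0.074 and 0.079). These 3 were the ones lower at an unadjusted p under 0.05, with no gene higher, and the median of the list was −0.0055. Without control sample 2 the count of higher genes was 1.

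Genes that process and secrete the precursors, 19 of 21 measured, held 6 lower genes and no higher one. Pcsk2, a convertase of secretory granules, was at −0.30 (SE 0.059, adjusted p = 0.175), Serpini1, an inhibitor of the plasminogen activator, at −0.17 (SE 0.053), Pcsk5, a further convertase, at −0.16 (SE 0.057) and Cadps2, which primes granules for release, at −0.26 (SE 0.093). The mean of the list lay between −0.032 and −0.0091 in the SNI samples, against 0.023 to 0.056 in the control samples, and its median difference was −0.033. The count of lower genes was 3 with any 1 of SNI samples 1 and 3 and control sample 3 left out, and 0 with the hybridization controls as a covariate. A gene higher at this threshold, 1 in number, appeared when SNI sample 1 or control sample 3 was left out.

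Of 28 adaptors and docking proteins of the Trk receptors, 27 were measured, and 5 were lower and none higher at an unadjusted p under 0.05. Plcg2, a phospholipase C, was at −0.20 (SE 0.051, adjusted p = 0.216), the adaptor Nck1 at −0.30 (SE 0.094), Kidins220, a scaffold of Trk receptors, at −0.18 (SE 0.060) and Frs3, a docking protein, at −0.21 (SE 0.079). The median of the list was −0.012. The count was 2 without SNI sample 1, 3 with any 1 of SNI samples 2 and 3 and control samples 1 and 3 left out, and 1 with the same covariate.
Below the adaptors, 33 of 44 genes of Ras-MAP kinase, PI3 kinase and calcium signalling were measured. Camk2a, a calcium-activated kinase of synapses, was higher by 0.29 (SE 0.061, adjusted p = 0.196), and the other 32 did not pass an unadjusted p of 0.05. Without control sample 2 the count of lower genes was 3, against 0 with all samples. The median was −0.0079.

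The genes listed as partners and effectors of p75, 29 of 36 measured, held 4 higher and 6 lower genes. Nfkbia, which holds NF-κB in the cytoplasm, differed by 0.40 (SE 0.066, adjusted p = 0.143). Mapk9, a JNK kinase, was at −0.27 (SE 0.052), the GTPase Rac1 at −0.18 (SE 0.051) and Magee1 at −0.22 (SE 0.063). Whether Magee1 itself acts with p75 was not checked, and Maged1, also listed, was at −0.074 (SE 0.049). The median was −0.017. With the hybridization controls as a covariate the counts were 6 higher and 1 lower.

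Regulators of Bdnf transcription, 27 of 29 measured, held 2 higher and 2 lower genes. Nfkb1, a subunit of NF-κB that is also 1 of the higher genes of the p75 list, was at 0.25 (SE 0.077) and the repressor Bhlhe41 at 0.16 (SE 0.058), while the histone deacetylase Hdac1 was at −0.24 (SE 0.083) and the coactivator Ppargc1a at −0.17 (SE 0.071). The median was 0.022. The higher count was 1 with any 1 of SNI samples 1 and 3 and control samples 1 and 3 left out. The lower count was 0 without SNI sample 3, and 1 with any 1 of the other 3 of these left out.
The study's own table of pathways lists 17 genes of neurotrophin signalling as targets of its miRNAs. Of these, 14 were measured, Bdnf and Ntf3 among them, and the list was chosen by the study from miRNAs of the same tissue. Of the other 12, none was higher and 2 were lower at an unadjusted p under 0.05, the 14-3-3 proteins Ywhaz (−0.14, SE 0.050) and Ywhaq (−0.15, SE 0.061), and the median was −0.056. The lower count was 0 without SNI sample 1, 2 or 3 or control sample 1, and 1 without control sample 3.

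Genes that BDNF is known to induce in neurons, 30 of 34 measured, were the list with the most higher genes, 11 of 30, with 1 lower. Fos was higher by 0.93 (SE 0.13, adjusted p = 0.127), Egr2 by 1.01 (SE 0.17), the nuclear receptor Nr4a1 by 1.12 (SE 0.19) and Arc, which acts at synapses, by 1.72 (SE 0.29). The adjusted p of the last 3 was 0.143. These are immediate early genes, which many stimuli besides BDNF induce, and their higher values in these samples were known when the list was written. The lower one was Tac1, the precursor of substance P, at −0.50 (SE 0.085). Tac1 is also on the list of striatum markers, of which 8 of 9 were measured and 3 were lower and none higher at an unadjusted p under 0.05, with Penk at −0.40 and Ppp1r1b at −0.26. The means of that list lay between −0.082 and −0.057 in the SNI samples, against 0.10 to 0.12 in the control samples, and the part of striatal tissue in these values was not tested. The median of the BDNF-induced list was 0.0062 and its neuropeptide genes (Tac1, Crh, Adcyap1, Sst, Npy and Vgf) lay between −0.50 and −0.054. Its mean was −0.037, 0.34 and 0.20 in SNI samples 1 to 3, against −0.15, −0.11 and 0.0032 in control samples 1 to 3, so that SNI sample 1 lay within the control range. The higher count was between 9 and 12 over all alternative settings, and the lower count was 4 when control sample 1 was left out, 3 when SNI sample 2 was and 2 when SNI sample 1 or control sample 2 was. Bdnf, itself a gene of this kind, was at 0.059 in SNI sample 2, where the list was highest, but at −0.074 in SNI sample 3, where the list was at 0.20. Its highest value of the 6 samples, 0.080, was in control sample 3, where the list was at 0.0032.

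**Figure D4:**
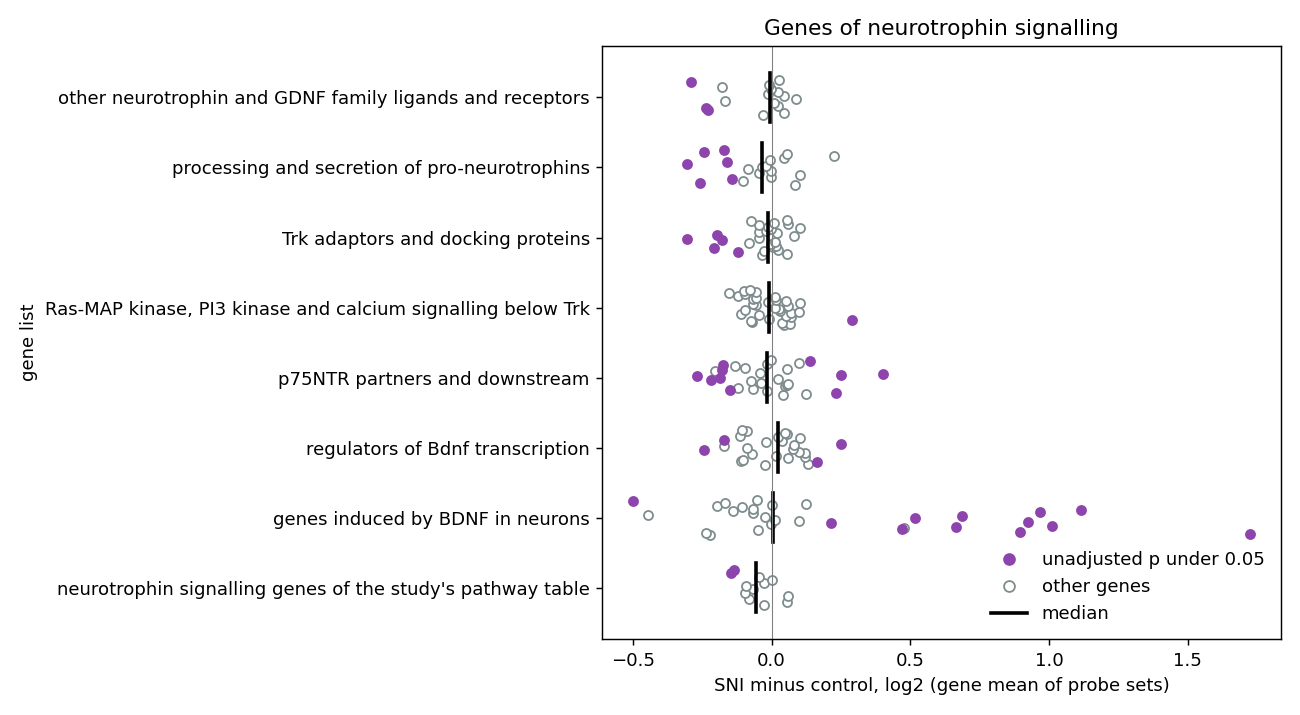
SNI minus control on the log2 scale (x axis) for each measured gene of the 8 lists (y axis), members left out. Filled circles are genes at an unadjusted p under 0.05, open circles the other genes, and the vertical bar is the median of the list; the medians lie between −0.056 and 0.022, and the genes furthest to the right are those induced by BDNF, up to 1.72 for Arc.

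Among all other genes, the 6 sample values most like those of Bdnf were those of Psmc1, a proteasome ATPase (Pearson r = 0.986), Ensa (r = 0.981) and the transcription factor Atf4 (r = 0.976). Most like Ntrk2 were the transcription factor Klf3 (r = 0.993), the secreted protease Htra1 (r = 0.993) and the early gene Nr4a3 (r = 0.991). With 6 samples and 14209 genes to choose from such values are common, and 22 genes for Bdnf and 37 for Ntrk2 had an r above 0.95.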

How the data were processed

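Per the labels and the study's methods, the authors corrected the Affymetrix arrays with RMA and applied log2 transformation and quantile normalization. As deposited, every log2 value is relative to its probe set's median across the 6 samples, a step not given in the sources used here, as are the software versions. The labels name isoflurane and the methods pentobarbital as the anesthetic. After 57 array controls were left out, each probe set, and each gene as the mean of its probe sets with that symbol alone, was fitted with limma 3.58.1 (lmFit, eBayes, SNI minus control, two-sided, R 4.3.3), with Benjamini-Hochberg adjustment over 31042 probe sets or 14217 genes. The 95% confidence intervals come from the same moderated fit. Pairs of probe sets or of receptor genes were compared by exact permutation over the 6 samples. The number of arrays limits the precision. The members, lists and tests were chosen with earlier results of these data known. All 8 members are named, with up to 4 genes of each list by smallest p under 0.05 and the 3 genes most like Bdnf and Ntrk2. The limma script was tested on simulated data. Promoter windows are from RefSeq (GRCr8), and figures were made in Python 3.11.15 (matplotlib 3.10.9). The alternatives were repeated quantile normalization, aligned medians, robust eBayes, the methods' t-test, a replicate block, the 18 hybridization controls as a covariate, an adjusted p under 0.10, only probe sets with 1 symbol, the median per gene, each sample left out, and control samples 1 and 3 left out. Same-numbered samples were not correlated (0.0085, −0.0098 and −0.069).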

Additional observations from a re-analysis of the deposited data

How the results depend on the processing

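No member passed an adjusted p of 0.05 in limma or the methods' t-test under any alternative, and of 330 recomputed member values 311 kept their sign. This count overstates the stability. Robust eBayes, the methods' t-test, the replicate block, the adjusted p under 0.10 and only probe sets with 1 symbol change no difference, so no sign could turn there. The median per gene could change only that of Ntrk2, and genes with 1 probe set count both as gene and as probe set. With the hybridization controls as a covariate, Ntrk2 on 1370652_at went from 0.50 to 1.43 (limma unadjusted p = 0.00419, adjusted p = 0.424). On 1397246_at it went from 0.23 to 0.13 (unadjusted p = 0.484). With this covariate the sign turned for Bdnf (0.077), Ntf3 (−0.46), Ntrk2 on 1368972_at (−0.10) and 1383135_at (−0.12) and Sort1 on 1372728_at (0.038), and 0 member genes and 1 member probe set passed an unadjusted p of 0.05. Without control samples 1 and 3, which leaves 1 control sample whose spread is taken from the other samples, it turned for Ntf3 (−0.11), Ntf4 (−0.011), Sort1 (0.046, and 0.12 on 1371004_at) and Ntrk2 on 1383135_at (−0.019), and 0 member genes and 0 member probe sets passed. With single samples left out it turned for Ntf3 (−0.018 to 0.31) and Bdnf on 1368678_at (−0.0036 to 0.053). With the replicate block 0 member genes and 2 member probe sets passed an unadjusted p of 0.05; the numbers do not pair the samples. Member genes passing were 0 with the methods' t-test, 0 with the median per gene and 0 to 2 with a sample left out; member probe sets were 2 with quantile normalization repeated and 0 to 2 with a sample left out. Over all probe sets the count at an adjusted p under 0.05 was 10, against 66 with quantile normalization repeated, 0 with the methods' t-test, 0 with only named probe sets, 5 without control samples 1 and 3, 0 to 35 with a sample left out, and 214 at an adjusted p under 0.10. Over all genes it was 0, against 2 with the covariate, 3 without control samples 1 and 3 and 0 to 4 with a sample left out. The cause of these shifts was not tested. Background correction, a filter on dim probe sets and signal over background could not be examined on centred values.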
